A study of Mus musculus with 18 samples.

Results

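Wt cells and Hmga2 KO cells of clone 1 (KO#1) were compared 24 h after the induction of epiblast-like cells (EpiLCs), using 3 libraries of each, which are 6 of the 18 libraries of the series. Both lines were mouse induced pluripotent stem cells, grown on inactivated fibroblast feeders with serum, leukaemia inhibitory factor (LIF) and the inhibitors PD0325901 and CHIR-99021. For 24 h they were then kept without feeders on Geltrex, in N2 and B27 medium with Activin A and bFGF. The genotypes given for the libraries are WT and Hmga2 KO, and the replicates are labelled as biological. The wt line and KO#1 are 1 clone each, so a difference between the genotypes and a difference between these clones cannot be told apart. The other libraries are the same lines at 0 h and a further KO clone (KO#2) at both times. Since the question was how far the difference at 24 h belongs to 1 chromosome, genes of chromosome 8 were kept apart from the rest: 818 of the 16619 genes with enough counts to be tested.

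Naive pluripotent cells resemble the epiblast before implantation and are held in that state by transcription factors such as Nanog, Klf4, Tfcp2l1 and Esrrb. Removal of LIF and the inhibitors, with FGF and Activin in the medium, moves them to a formative state in which naive genes are shut down and Otx2, Fgf5, Pou3f1 and the de novo DNA methyltransferases are switched on. Hmga2 is a small chromatin protein that binds AT-rich DNA through its AT-hooks, and Hmga1 is its paralog. Whole-chromosome changes are a known event in cultured mouse pluripotent cells. DNA copy number was not measured in these libraries.

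Total counts lay between 18640956 and 23872837 in the 6 libraries. Expression is given as CPM, the count relative to the library total corrected by its TMM factor, and 3 counts, the smallest level regarded as detected, corresponded to between 0.176 and 0.306 CPM. The libraries of 1 group differed among themselves. Protein-coding genes held 58.2%, 41.6% and 63.4% of the counts in wt replicates 1, 2 and 3, and 50.5%, 41.3% and 63.1% in KO#1. Mitochondrial transcripts held 2.15%, 1.36% and 1.03% in the wt libraries and 2.06%, 1.35% and 0.954% in KO#1, so libraries of 1 number resembled each other across the lines. Pou5f1, the defining factor of pluripotent cells, was high in all of them, at 1276, 1285 and 1672 CPM in wt cells and 1072, 1082 and 1527 CPM in KO#1. Because same-numbered libraries deviated together, 2 analyses are given. The main one is edgeR's quasi-likelihood model of all 6 groups. The second, chosen after the data were seen and called the paired fit here, uses only the 6 libraries with the replicate number as a block.

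Hmga2 (chromosome 10, 120361275 to 120476469, minus strand, GRCm38), the targeted gene, was detected in all 6 libraries. The wt libraries had 5.86, 5.51 and 5.93 CPM and the KO#1 libraries 3.67, 2.25 and 0.870 CPM, without overlap. The log2 fold change was -1.36 (SE 0.64) with an adjusted p of 0.22 in the main edgeR model, and -1.43 with an adjusted p of 0.0083 in the paired fit. With the replicate block in the model of all 18 libraries it was -1.47, which was not called (adjusted p = 0.153). Reads counted to Hmga2 were still found in every KO#1 library. Genes on the opposite strand overlap Hmga2, and their reads could have been counted with it. Which part of the gene is missing in the KO cells is not given in the sources used here, and reads from a remaining part would be counted, so the counts do not check the label of the clone. The paper examined Hmga2 protein in its wt and KO clones by western blot, which is not read here. Hmga1 (chromosome 17, 27556497 to 27563674, plus strand) fell from 810 ± 136 CPM in wt cells to 182 ± 41.1 CPM in KO#1 (SD, n = 3 each), a log2 fold change of -2.16 (SE 0.38, adjusted p = 0.00094, edgeR). This value depends on how reads were assigned between Hmga1 and its near-identical copy Hmga1b, which rose, and the sum of both genes was 821 ± 135 CPM in wt cells and 531 ± 125 CPM in KO#1.

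At an adjusted p under 0.05, 1636 genes were called different between KO#1 and wt cells at 24 h, 9.84% of those tested. In bulk RNA, fewer cells of a type and less RNA per cell cannot be told apart. Of these, 1038 were higher in KO#1 (6.25% of the tested genes) and 598 lower (3.6%). The paired fit called 5693 of its 13378 genes (42.6%), with 2946 higher (22%) and 2747 lower (20.5%), and 1494 of the 1636 genes were called there in the same direction. Leaving out wt replicate 1 or wt replicate 2 reduced the count of the main model to 1029 and 1028. Protein-coding genes made up 870 of the higher and 530 of the lower genes. Off chromosome 8, 902 genes were called higher and 590 lower, of 15801 tested, and their median log2 fold change was -0.04.

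Chromosome 8 stood apart from the other autosomes. Over its 818 genes the median log2 fold change was 0.47, or 1.38-fold, where the other autosomes had medians from -0.17 for chromosome 3 to -0.00043 for chromosome 14. Positive values were found for 84.1% of chromosome 8 genes and 46.6% of the others. The edgeR model called 136 chromosome 8 genes higher, 16.6% against 6.25% of all tested genes, and 8 lower, 0.978% against 3.6%. In the paired fit 450 were higher and 34 lower, of 715 tested (background 22% and 20.5%). Without wt replicate 1 or wt replicate 2 the main model called 77 and 84 higher. All 3 KO#1 libraries lay above all 3 wt libraries for 318 chromosome 8 genes, or 38.9%, against 15.5% of all tested genes.

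**Figure D1:**
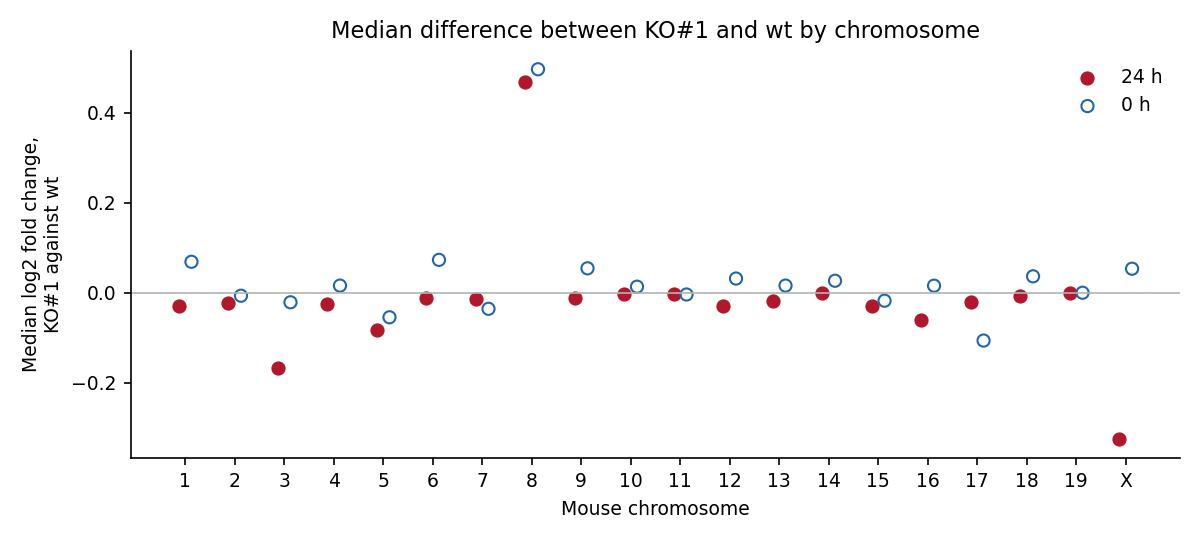
Median log2 fold change of KO#1 against wt cells (vertical axis) over the tested genes of each autosome and the X chromosome (horizontal axis), at 24 h (filled circles) and at 0 h (open circles). Chromosome 8 lies at 0.47 and 0.50, while the X chromosome lies at -0.33 at 24 h and 0.05 at 0 h.

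The level of chromosome 8 was also computed library by library, as the median over its genes of log2 CPM minus the wt mean at the same time, after subtraction of the same median for the other autosomes. At 24 h it was -0.05, -0.01 and 0.07 in the wt libraries and 0.43, 0.45 and 0.58 in the KO#1 libraries. The groups did not overlap, and the differences within the numbers were 0.48, 0.46 and 0.51. The exact permutation test (two-sided, 3 against 3) gave p = 0.1, the smallest value that this design allows. Because the levels are measured against the wt mean, the wt libraries lie near 0 by construction. The test therefore allows no conclusion. At 0 h, in other libraries of the same lines, the wt levels were 0.05, -0.04 and 0.01, those of the KO#1 libraries 0.47, 0.48 and 0.47. The difference in the response of chromosome 8 genes to the induction had a median of 0.01 on the log2 scale.

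The shift ran along the whole chromosome. In windows of 10 Mb, from 13 to 122 tested genes each, the median log2 fold change at 24 h was positive in all 13 windows. The lowest was 0.25 (30 to 40 Mb, 33 genes) and the highest 0.68 (20 to 30 Mb, 63 genes). At 0 h all 13 windows were also positive, from 0.24 to 0.71. The median was larger for genes of low expression, with values of 0.64, 0.45 and 0.43 in 3 equal parts of the chromosome 8 genes from the lowest to the highest mean CPM. Scatter was wider at low levels, with quartiles of 0.03 and 1.42 in the lowest of these parts and of 0.27 and 0.68 in the highest.

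**Figure D2:**
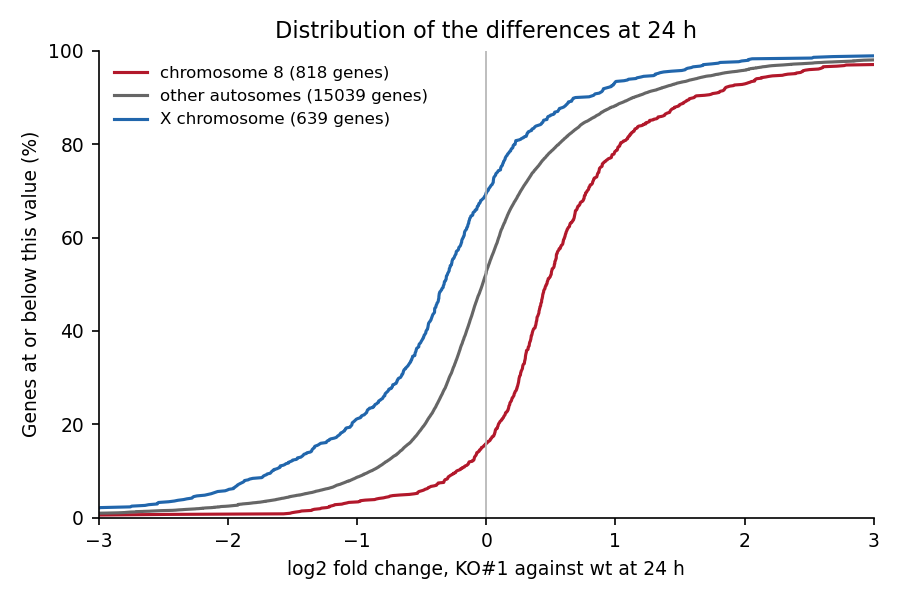
Share of genes (vertical axis, %) at or below each log2 fold change of KO#1 against wt cells at 24 h (horizontal axis), for chromosome 8, the other autosomes and the X chromosome. The chromosome 8 curve is moved to the right over most of its length, with its median at 0.47, and the X chromosome curve to the left, with its median at -0.33.

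Abundant protein-coding genes of chromosome 8 showed how small the shift was for single genes. Rpl13, a protein of the large ribosomal subunit, had 2084, 1494 and 1902 CPM in wt cells and 4249, 2962 and 2776 CPM in KO#1, a log2 fold change of 0.87 (SE 0.26, adjusted p = 0.042, edgeR). Leaving out any of the 3 wt libraries, or KO#1 replicate 1 or 2, ended that call. Mcm5, a subunit of the replicative helicase, had a log2 fold change of 0.54 and was not called by the main model (adjusted p = 0.20), but was in the paired fit (0.00098). Tomm20, a receptor of the mitochondrial import pore, was at 0.25 (adjusted p = 0.76, and 0.037 in the paired fit). The metallothionein Mt1 was at -0.45 (adjusted p = 0.44, and 0.0054 in the paired fit). With the replicate block in the model of all 18 libraries, Mcm5, Tomm20 and Mt1 were not called (adjusted p = 0.081, 0.74 and 0.39).

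Single chromosome 8 genes differed by much more than the shift. Kbtbd11, which encodes a Kelch and BTB domain protein, had no count in any wt library and 6.76, 4.49 and 8.58 CPM in KO#1, at least 30.0-fold higher when the wt libraries are set to 3 counts each. Cpe, the carboxypeptidase that trims peptide hormones, rose from 2.65 ± 0.772 to 22.0 ± 4.24 CPM, a log2 fold change of 3.06 (SE 0.34, adjusted p = 8.5e-06). Snx20, a sorting nexin, Ido2, an enzyme of tryptophan breakdown, Ldhd, the D-lactate dehydrogenase, and Pcnx2 had log2 fold changes from 3.04 to 3.71. A call and no overlap of libraries were conditions for naming the chromosome 8 genes of this paragraph. Snx20, Ido2, Ldhd and Pcnx2 kept their call with any single library left out. Ido2 and Ldhd, at 3.35 and 3.16, were at 4.26 and 4.07 without wt replicate 3. On the lower side, Lzts1, which encodes a leucine zipper protein, fell from 8.78 ± 4.51 CPM in wt cells to 0.595 ± 0.326 CPM in KO#1, by 3.89 on the log2 scale (SE 0.62, adjusted p = 0.0004). Tex15, a germ cell gene, Sox1, a transcription factor of the neural plate, and Neto2, an auxiliary protein of kainate receptors, were lower by -1.48, -1.29 and -1.28 (adjusted p = 0.016, 0.028 and 0.040, edgeR). The highest adjusted p with 1 library left out was 0.093, 0.13 and 0.18 for these 3 genes. Neto2 was not called with the replicate block in the model of all libraries, and was in the paired fit (adjusted p = 0.00081).

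Col4a1 and Col4a2, the chains of the main collagen of basement membranes, are neighbours on chromosome 8 that are read in opposite directions from starts 21 bases apart. They rose together. Col4a1 (11198423 to 11312826, minus strand) had 7.38, 8.81 and 14.4 CPM in wt cells and 43.9, 39.5 and 84.0 CPM in KO#1, and its log2 fold change was 2.45 (SE 0.44, adjusted p = 0.0011). For Col4a2 (11312805 to 11449287, plus strand) the values were 2.64, 2.10 and 4.69 CPM and 14.5, 12.4 and 29.8 CPM, with a log2 fold change of 2.57 (SE 0.49, adjusted p = 0.0019). In both genes replicate 3 was the highest of its line. At 0 h the log2 fold changes were 1.36 and 1.32 and were not called, and the change between the times was not called either (adjusted p = 0.58 and 0.56 for the interaction). The promoters are shown because those of this pair overlap. The RefSeq sequences (GRCm38.p6) run from 250 bases before to 50 bases after the annotated start, on the strand of the gene, at chr8:11312777-11313076 for Col4a1 and chr8:11312555-11312854 for Col4a2. Capitals mark the GC box GGGCGG and the box CCAAT on either strand:
Col4a1: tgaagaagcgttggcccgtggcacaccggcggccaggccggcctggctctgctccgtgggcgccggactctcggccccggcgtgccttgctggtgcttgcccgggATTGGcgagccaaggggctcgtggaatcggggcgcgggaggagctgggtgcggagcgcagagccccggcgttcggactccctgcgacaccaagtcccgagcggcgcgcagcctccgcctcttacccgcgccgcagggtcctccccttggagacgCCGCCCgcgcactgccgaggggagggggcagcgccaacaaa
Col4a2: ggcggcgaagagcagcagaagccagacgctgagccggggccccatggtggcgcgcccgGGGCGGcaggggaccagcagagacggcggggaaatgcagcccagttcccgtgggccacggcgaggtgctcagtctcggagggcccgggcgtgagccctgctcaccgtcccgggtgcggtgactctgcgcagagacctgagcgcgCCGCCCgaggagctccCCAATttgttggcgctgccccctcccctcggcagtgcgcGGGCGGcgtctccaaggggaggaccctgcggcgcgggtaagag
The windows share 78 bases, which are the same sequence read on opposite strands. GC content is 74% and 73.7%, with 37 and 33 CpG dinucleotides. The Col4a1 window holds 1 GC box and 1 CCAAT box, and the Col4a2 window 3 and 1. GGGCGG was found in 35.7% and CCAAT in 37.4% of the 32851 RefSeq promoter windows of this length.

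The X chromosome and a window of chromosome 3 also differed as a whole, and were chosen after their values were seen. For X chromosome genes the median was -0.33 on the log2 scale (639 tested, 10 called higher and 51 lower, 7.98% against 3.6% of all tested genes). By library, the X level was 0.14, 0.03 and -0.16 in the wt libraries and -0.22, -0.20 and -0.49 in those of KO#1, and KO#1 was lower in all 3 numbers, by 0.36, 0.23 and 0.34. With no filter on low counts the X chromosome median relative to the other autosomes was 0, against -0.30 over the tested genes. With the stricter filter of 10 counts in every library it was -0.24. At 0 h the lines overlapped, with levels of -0.17, 0.21 and 0.02 in the wt libraries and -0.24, -0.23 and 0.43 in KO#1. Xist, the RNA that coats an inactive X, was low in both lines, at 5.16, 2.00 and 1.67 CPM in wt cells and 1.84, 2.45 and 1.12 CPM in KO#1. On chromosome 3, the window from 90 to 100 Mb had a median log2 fold change of -0.64 over 178 genes, of which 40 were called lower and 5 higher (22.5% and 2.81%, beside 3.6% and 6.25% of all tested genes). The neighbouring windows had medians of 0.25 (80 to 90 Mb) and -0.38 (100 to 110 Mb). Beyond them, the medians were -0.40 (110 to 120 Mb), -0.40 (120 to 130 Mb) and -0.34 (130 to 140 Mb). Windows were not computed for chromosomes other than 8, X and 3. The level of the window from 90 to 100 Mb was -0.01, 0.07 and -0.07 in the wt libraries and -0.51, -0.41 and -0.54 in KO#1 at 24 h, and lay between -0.51 and -0.44 in KO#1 at 0 h.

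**Figure D3:**
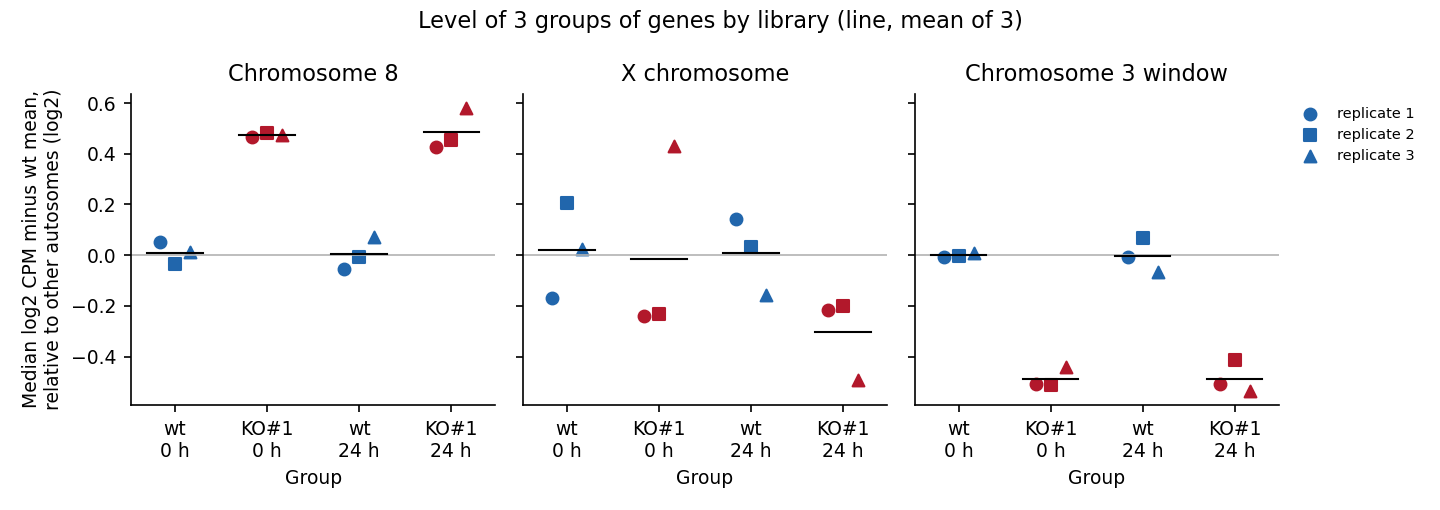
Level of the genes of chromosome 8, of the X chromosome and of the chromosome 3 window in each library (vertical axis, log2 units relative to the wt mean of the same time and to the other autosomes) in 4 groups (horizontal axis; markers are replicates 1 to 3, lines the mean of 3). Chromosome 8 is high and the chromosome 3 window low in all KO#1 libraries at both times, while the X chromosome is low in all KO#1 libraries at 24 h and spread at 0 h.

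Off chromosome 8, many of the genes with the largest differences were near or at 0 in one line. Baiap2l1, which encodes a protein that bends membranes at actin protrusions, had 1.52, 0.701 and 2.10 CPM in wt cells and 176, 215 and 230 CPM in KO#1 (log2 fold change 7.11, SE 0.39, adjusted p = 1.9e-09). Ehd3, of the endosomal recycling machinery, rose from between 1.05 and 1.36 CPM in the wt libraries to between 44.0 and 79.9 CPM in KO#1 (log2 fold change 5.60, SE 0.32, adjusted p = 2.5e-09). Ly6a, the surface antigen Sca-1, went from 1.41, 1.10 and 0.988 CPM to 90.1, 38.7 and 42.3 CPM. Lrrc6, needed for the assembly of ciliary dynein, had no count in wt cells and 3.97, 5.21 and 3.85 CPM in KO#1, at least 19.7-fold higher against 3 counts per library. Camk4, a calcium-dependent kinase, had a single count in the 3 wt libraries and a mean of 4.59 CPM in KO#1, a ratio of 198 to the level given by that count over the 3 libraries, with a counting interval from 35.6 to 7838. Tagap, a GTPase-activating protein of T cells, had 2 counts in wt cells and a mean of 5.55 CPM in KO#1, a ratio of 120 (33.3 to 992). Bcl2l15, of the Bcl2 family, and Plac9a had log2 fold changes of 5.46 and 5.49. The KO#1 libraries of Plac9a were far apart, at 13.2, 14.7 and 1.74 CPM.

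The genes with the largest falls in KO#1 included Olig2, a transcription factor of motor neuron and oligodendrocyte progenitors. It had 9.85, 11.0 and 11.8 CPM in wt cells and no count in any KO#1 library, at least 45.8-fold lower against 3 counts per library. Its neighbour Olig1, added after its values were seen, had 2.64, 3.10 and 3.52 CPM in wt cells and was also without counts in KO#1. Apoa2, an apolipoprotein of high-density lipoprotein, had 32.9, 24.1 and 29.6 CPM in wt cells and 2 counts in all in KO#1, a ratio of 570 (158 to 4705). Mid1, a microtubule-bound ubiquitin ligase on the X chromosome, had 25.8, 20.4 and 21.4 CPM in wt cells and 0.441, 0.204 and 0.124 CPM in KO#1. Nod1, a sensor of bacterial cell walls, fell from 21.5 ± 7.82 to 0.588 ± 0.282 CPM, by 5.11 on the log2 scale (SE 0.43, adjusted p = 2.4e-07). Myo1f, a myosin, Ush1c, a scaffold of hair cell bundles, Gc, the vitamin D binding protein, Rims4 of the synaptic active zone, Tcte2 and the zinc finger gene Zfp973 fell by between 4.44 and 5.89 on the log2 scale. The 20 genes off chromosome 8 that were named by rule for their fold change, which are those above apart from Olig1 together with Eno1b and Hmga1b, kept their call with any single library left out, with adjusted p of at most 0.0382 in edgeR. Among the log2 fold changes given for them, those of Plac9a and Bcl2l15 became 6.26 and 6.12 without wt replicate 1, and that of Zfp973 went from -4.86 to -6.31 without KO#1 replicate 1. Tagap, Camk4 and Apoa2, given as ratios, had log2 fold changes of 6.69, 7.20 and -8.92. With 1 library left out these ranged from 6.16 to 9.41, from 6.66 to 9.14 and from -9.40 to -8.24. Baiap2l1, Camk4, Tagap, Mid1, Ush1c and Tcte2 overlap genes on the opposite strand, whose reads could have been counted with them, since use of the strand is not given in the sources used here. The same holds for Hmga2, Hmga1, Kbtbd11, Ldhd, Pcnx2, Neto2, Smyd1 and Tmem181a.

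**Figure D4:**
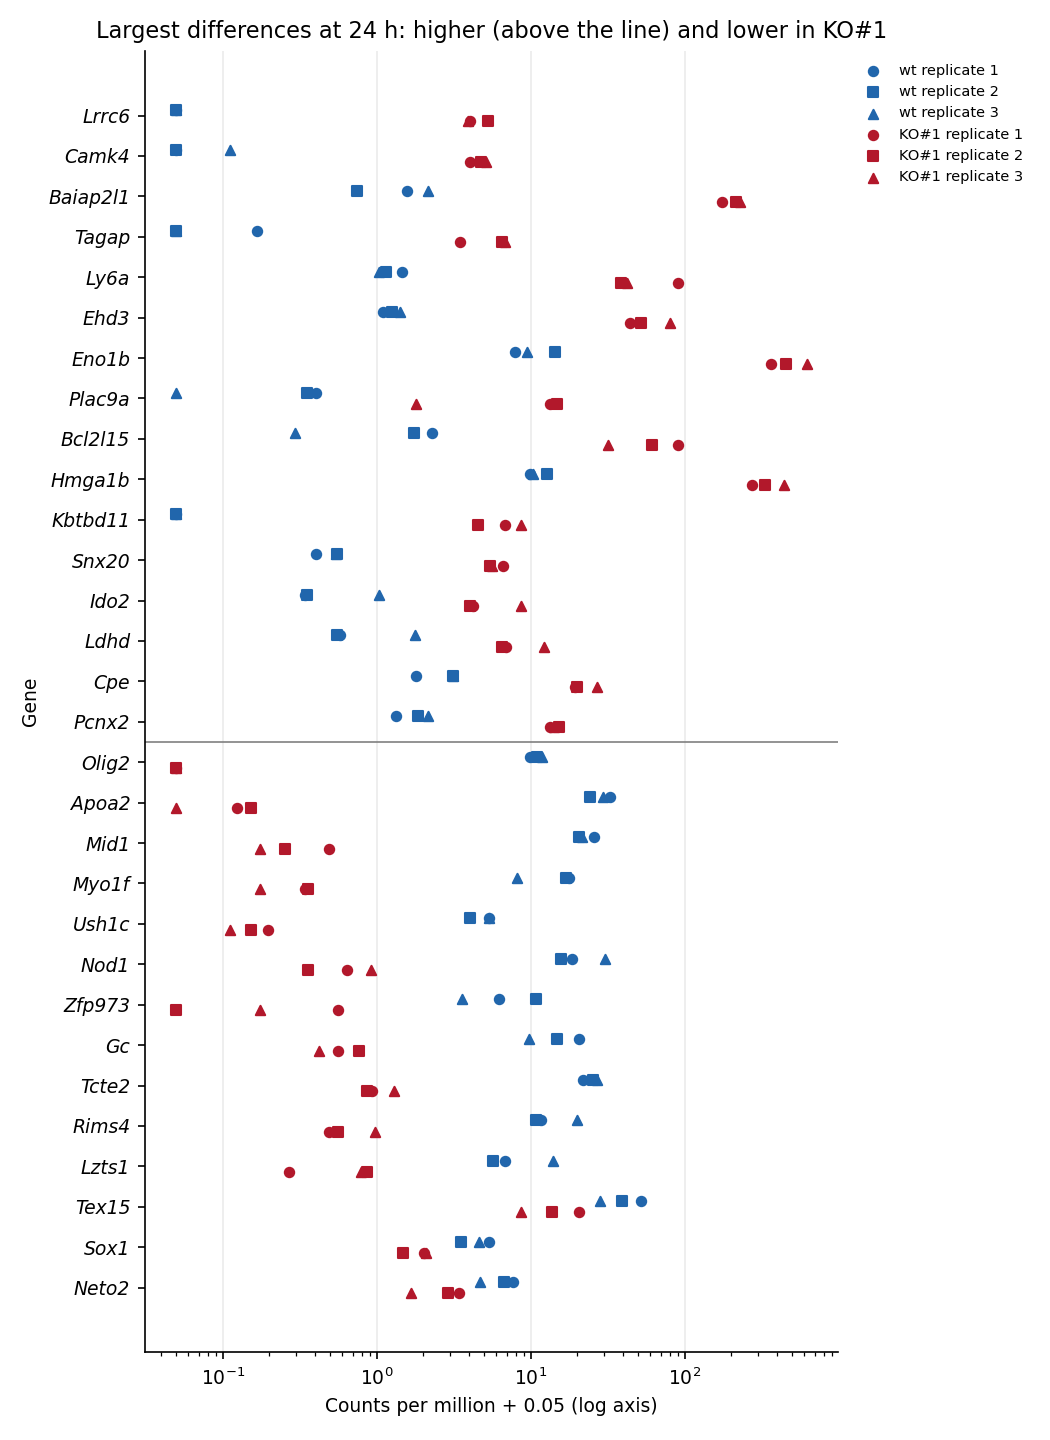
CPM plus 0.05 on a log axis (horizontal) in the 3 wt libraries (blue) and the 3 KO#1 libraries (red) at 24 h, for the genes with the largest differences (vertical axis), those higher in KO#1 above the line and those lower below it. A call and no overlap between wt and KO#1 libraries were conditions for showing a gene. Lrrc6, Kbtbd11 and Olig2 were without counts in one line.

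The promoters of Baiap2l1 (chr5:144358063-144358362, minus strand) and Olig2 (chr16:91225300-91225599, plus strand) are shown because Baiap2l1 had the largest rise among the genes named here that had counts in every wt library, and Olig2 had no count in KO#1. They come from the same RefSeq set and carry the same marks:
Baiap2l1: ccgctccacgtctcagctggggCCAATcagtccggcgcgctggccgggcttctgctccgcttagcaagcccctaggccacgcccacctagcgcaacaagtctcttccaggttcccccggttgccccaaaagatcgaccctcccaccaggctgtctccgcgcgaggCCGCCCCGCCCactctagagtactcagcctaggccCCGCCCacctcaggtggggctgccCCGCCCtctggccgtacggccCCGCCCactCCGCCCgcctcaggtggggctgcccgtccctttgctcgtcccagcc
Olig2: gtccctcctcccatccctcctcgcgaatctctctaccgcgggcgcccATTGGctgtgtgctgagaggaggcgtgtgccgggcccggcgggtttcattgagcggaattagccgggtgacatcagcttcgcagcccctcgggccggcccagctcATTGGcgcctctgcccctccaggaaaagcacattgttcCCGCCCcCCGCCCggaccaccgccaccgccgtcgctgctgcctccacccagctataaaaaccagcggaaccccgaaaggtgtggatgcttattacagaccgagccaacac
Each of these windows holds 25 CpG dinucleotides, against a median of 20 over the 11389 tested genes with a RefSeq promoter. The Baiap2l1 window has 6 GC boxes, of which a pair overlap. The medians were 21 CpG for genes called higher on chromosome 8 (85 matched), 16 for genes called higher elsewhere (588 matched) and 17 for genes called lower elsewhere (431 matched).

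Genes with near-identical copies are uncertain, since the counting could assign their reads to either copy. Hmga1b, an intronless copy of Hmga1 on chromosome 11, rose from 11.0 ± 1.51 to 350 ± 85.0 CPM (log2 fold change 4.99, SE 0.33, adjusted p = 1.5e-08) while Hmga1 fell. Together, both genes held 708, 785 and 971 CPM in wt cells and 413, 518 and 663 CPM in KO#1, so the sum was lower within each number. The glycolytic enolase Eno1 and its intronless copy Eno1b gave a different sum. Eno1b rose from 10.6 ± 3.43 to 480 ± 128 CPM, and the sum with Eno1 was 2197 ± 483 CPM in wt cells and 2151 ± 519 CPM in KO#1. Among processed pseudogenes as a class, 91 were called higher and 13 lower of 761 tested (12.0% and 1.71%, beside 6.25% and 3.6% of all tested genes), and 3 of those called higher are on chromosome 8.

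Several naive pluripotency genes rose in KO#1. Of the 15 genes of this list, 7 were called higher and 1 lower (background 6.25% and 3.6%), and the median log2 fold change was 1.02, beside -0.02 over all tested genes. The paired fit called 11 higher and 2 lower (background 22% and 20.5%). Nanog, a central factor of the naive state, ranged from 12.0 to 27.4 CPM in wt cells (mean 19.5 ± 7.74) and from 36.8 to 113 CPM in KO#1 (mean 68.8 ± 39.6, log2 fold change 1.82, SE 0.48, adjusted p = 0.019, edgeR). The lines did not overlap. Zfp42 (Rex1), a naive marker on chromosome 8, rose from 42.5, 40.4 and 31.1 CPM to 192, 153 and 106 CPM, a log2 fold change of 1.98 that is well above the median of its chromosome. Tbx3, a repressor that sustains self-renewal, was at 3.57, 3.30 and 2.59 CPM in wt cells and 18.4, 11.3 and 12.5 CPM in KO#1 (log2 fold change 2.16, SE 0.49, adjusted p = 0.0071). Klf5, Prdm14 and Tcl1 were also called, at 1.97, 2.26 and 1.43. Tfcp2l1, an effector of LIF signalling, had 30.8, 29.4 and 29.9 CPM in wt cells and 71.1, 66.2 and 70.4 CPM in KO#1 (adjusted p = 0.030, lost with any of the 6 libraries left out). Tdh, the threonine dehydrogenase of naive cells, fell from 113, 125 and 162 CPM to 42.6, 44.5 and 71.9 CPM, by 1.33 (SE 0.26, adjusted p = 0.0025).

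The naive genes that were not called were Esrrb at 0.35, Klf2 at 0.54, Klf4 at 0.30, Fgf4 at 0.18, Nr5a2 at 0.94, Dppa3 at 1.02 and Nr0b1 at -0.31, with adjusted p between 0.055 and 0.80. Leaving out wt replicate 1 left 3 of the list called higher and leaving out wt replicate 2 left 4, and Nanog was not called without wt replicate 2, wt replicate 3 or KO#1 replicate 1 (highest adjusted p 0.11). At 0 h, where 6.67% of all tested genes were called, Zfp42 and Dppa3 were called higher and Nr0b1 lower. Nanog had 392, 540 and 512 CPM in wt cells at 0 h and 474, 593 and 957 CPM in KO#1, above all 6 libraries at 24 h.

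Several genes of the formative and primed epiblast fell. Of 15, 6 were called lower and 0 higher (background 3.6% and 6.25%), the median log2 fold change was -0.78, and 14 values were negative. The paired fit called 13 lower and 1 higher (background 20.5% and 22%). Pou3f1 (Oct6), a POU factor of the epiblast, had 125, 125 and 184 CPM in wt cells and 24.6, 27.6 and 39.2 CPM in KO#1, a fall by 2.25 on the log2 scale (SE 0.35, adjusted p = 0.00036). Dnmt3a, a de novo DNA methyltransferase, fell from 558 ± 87.3 to 181 ± 23.9 CPM, by 1.62 (SE 0.32, adjusted p = 0.0028). Sox3, which is on the X chromosome, had 9.26, 8.81 and 13.3 CPM in wt cells and 1.62, 1.53 and 2.18 CPM in KO#1. Lef1, a nuclear partner of β-catenin, had 73.5, 73.1 and 110 CPM in wt cells and 6.46, 15.4 and 27.2 CPM in KO#1. Cdh2, the N-cadherin gene, and Sall2, a zinc finger factor, were the others called, at -1.82 and -1.64. The calls of Lef1 and Sall2 were lost without wt replicate 3, KO#1 replicate 1 or KO#1 replicate 2. At 0 h, where 6.67% of all tested genes were called, Otx2 was called higher and Pou3f1 and Sox3 lower.

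The other 9 formative genes were not called by the main model. Otx2, a factor at the start of this transition, was the single positive value. It had 29.9, 41.5 and 57.2 CPM in wt cells and 55.7, 73.8 and 96.3 CPM in KO#1, so the lines overlapped while KO#1 was higher within each number (log2 fold change 0.81, adjusted p = 0.33, and 7.1e-05 in the paired fit). Fgf5, the usual marker of EpiLCs, had 9.49, 10.7 and 22.2 CPM in wt cells and 3.16, 7.15 and 14.4 CPM in KO#1, again with overlap (-0.78, adjusted p = 0.47, and 0.0065 in the paired fit). Dnmt3b was at -0.66 (adjusted p = 0.26), Lin28b at -1.10 (0.056) and Etv4 at -0.02 (0.99), and of these Etv4 was not called in the paired fit either.

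**Figure D5:**
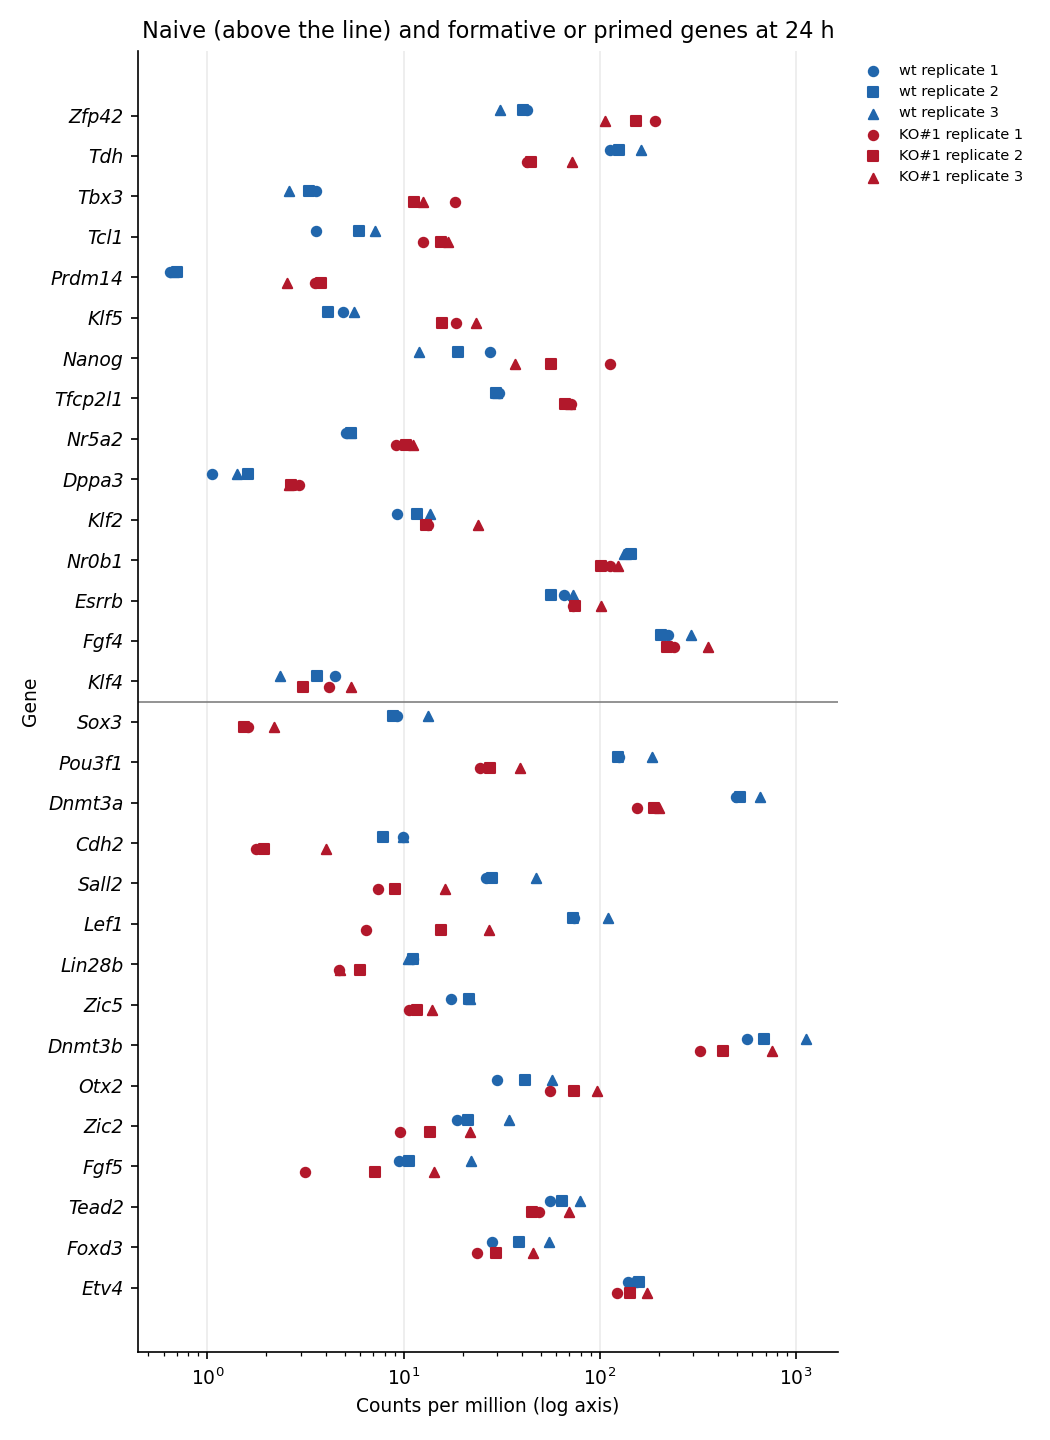
CPM on a log axis (horizontal) in the 3 wt libraries (blue) and 3 KO#1 libraries (red) at 24 h for the 15 naive genes (above the line) and the 15 formative and primed genes (below it), each ordered by adjusted p. KO#1 lies above wt for Zfp42, Tbx3 and Nanog and below it for Sox3, Pou3f1 and Dnmt3a, and the lines overlap for Esrrb, Klf4 and Fgf5.

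Of 9 core pluripotency genes, 0 were called by edgeR, beside 9.84% of all tested genes. At an unadjusted p under 0.05 there was 1, DESeq2 called 1 lower, and 2 were higher and 3 lower in the paired fit (background 22% and 20.5%), with a median log2 fold change of -0.18. Pou5f1 was at -0.20 (adjusted p = 0.72), Sox2 at 0.44 (0.37) and Sall4 at 0.61 (0.41). Lin28a, an RNA-binding protein that blocks let-7, had 393, 374 and 484 CPM in wt cells and 201, 232 and 248 CPM in KO#1 (-0.88, adjusted p = 0.28, and 0.00013 in the paired fit).

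Genes of other lineages were taken as 4 lists. Of 12 primitive streak and mesendoderm genes only Eomes and Gsc had enough counts to be tested, and the others had at most 21 counts in a library. Eomes, a T-box factor of early mesendoderm, rose from 1.88, 1.70 and 1.67 CPM to 5.22, 8.38 and 11.7 CPM (log2 fold change 2.26, SE 0.36, adjusted p = 0.00036). Of 11 genes of the primitive endoderm list 4 were called higher and 1 lower (background 6.25% and 3.6%), with a median of 1.33. Col4a1 and Col4a2 are among these 4, and the others were at low levels: Pdgfra, a receptor kinase, with 0.352, 0.200 and 0.185 CPM in wt cells and 2.94, 1.02 and 0.497 CPM in KO#1, and Gata6, a driver of the lineage, with 0.410, 0.200 and 0.309 CPM and 2.42, 1.23 and 0.622 CPM. Lamb1, a laminin chain, fell from 44.1 ± 13.3 to 21.3 ± 3.65 CPM. Sox17, Sox7 and Gata4, further defining genes of this lineage, were not called. Of the 8 tested trophoblast genes 0 were called by edgeR or DESeq2, 2 had an unadjusted p under 0.05, and 2 were higher and 1 lower in the paired fit (background 22% and 20.5%). Of 4 tested neuroectoderm genes Sox1 was called lower.

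Markers of fibroblasts, the cells used as feeders before the induction, were also measured. Of 12, 1 was called higher and 1 lower (background 6.25% and 3.6%). These were Acta2, which rose (2.34, 1.70 and 1.30 CPM in wt cells, 6.76, 8.89 and 3.54 CPM in KO#1) and Dcn, which fell (8.32, 4.61 and 4.44 CPM in wt cells, 2.79, 0.715 and 0.497 CPM in KO#1). The median log2 fold change of the list was 1.00, and the paired fit called 7 higher and 1 lower (background 22% and 20.5%). Summed over the list, the level was 27.4 to 44.2 CPM in wt cells and 49.9 to 74.7 CPM in KO#1, without overlap, and all 12 genes had counts. The part of these cells in the differences of the extracellular matrix genes, Col4a1 and Col4a2 included, was not tested.

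Signalling genes were taken as 4 lists, with 6.25% higher and 3.6% lower over all tested genes as their background. Among 15 genes of FGF and ERK signalling 3 were called higher and 1 lower. Spry1, an inhibitor of receptor kinase signalling, rose from 3.93, 5.11 and 7.35 CPM to 12.5, 14.2 and 20.9 CPM (log2 fold change 1.54, SE 0.29, adjusted p = 0.0018). Dusp4, an ERK phosphatase on chromosome 8, rose from 22.1 ± 6.03 to 51.4 ± 16.8 CPM, with an adjusted p of 0.047. The receptors Fgfr4 and Fgfr2 were called in opposite directions, at 2.20 and -1.66. Among 14 genes of the Nodal and Activin pathway 2 were lower: Lefty1, a secreted antagonist of Nodal, with 50.2, 44.0 and 81.0 CPM in wt cells and 13.3, 13.3 and 22.8 CPM in KO#1, and Skil, a repressor of Smad targets, at -0.84 (adjusted p = 0.025). Nodal itself was at 0.16. Of 10 genes of the LIF pathway, Tfcp2l1 was called higher, and Stat3 was at 0.72 (adjusted p = 0.17, and 0.0023 in the paired fit). Of 13 Wnt pathway genes Axin2, a feedback inhibitor, rose from 8.30 ± 0.778 to 22.7 ± 4.53 CPM (adjusted p = 0.036), and Lef1 fell. In the paired fit (background 22% higher and 20.5% lower) 4 genes were higher and 5 lower for FGF and ERK, 1 and 4 for Nodal and Activin, 5 and 2 for LIF, and 2 and 3 for Wnt.

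Chromatin genes were also taken as 4 lists, with the same background of 6.25% and 3.6%, and of 22% higher and 20.5% lower in the paired fit. Of the 12 genes of Polycomb repressive complex 2, 0 were called by edgeR or DESeq2, 1 had an unadjusted p under 0.05, the median was 0.02, and the paired fit called 3 higher and 1 lower. Suz12 and Ezh2, core subunits, were at -0.00 and -0.03. Of 12 genes of the lamina and inner nuclear membrane 2 were higher. Lmna, which encodes lamins A and C, rose from 27.9, 35.7 and 45.6 CPM to 98.8, 112 and 182 CPM (log2 fold change 1.85, SE 0.46, adjusted p = 0.015), a call lost without wt replicate 1, wt replicate 2 or KO#1 replicate 3. Sun2, which links the lamina to the cytoskeleton, was at 1.77 (adjusted p = 0.0096, and 0.0565 without wt replicate 1), and Lmnb1 at 0.04. In the paired fit 4 genes of this list were higher and 1 lower. Of 12 genes of HP1 and H3K9 methylation 2 were lower, 7 in the paired fit. Suv39h1, an X-linked H3K9 methyltransferase, fell from 23.9, 21.2 and 31.3 CPM to 7.57, 7.76 and 11.1 CPM, by 1.53 (SE 0.25, adjusted p = 0.00054). Setdb1, which methylates the same residue, lies in the chromosome 3 window with the lower median and was at -0.87, close to that median (adjusted p = 0.016, not called without wt replicate 2 or 3 or KO#1 replicate 1 or 2). Of 8 genes of DNA methylation Dnmt3a alone was called by edgeR, and Dnmt1 and Uhrf1, which maintain methylation, were at 0.10 and 0.22. Of these 8, 2 were called higher and 3 lower in the paired fit.

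Among 17 glycolysis genes 2 were called higher and 2 lower (background 6.25% and 3.6%). The paired fit called 4 higher and 9 lower (22% and 20.5%), and the median was -0.33. Pfkp, a phosphofructokinase isoform, rose from 41.8, 61.6 and 61.4 CPM to 132, 179 and 215 CPM (log2 fold change 1.67, SE 0.26, adjusted p = 0.00031). Ldhb, a lactate dehydrogenase subunit, fell from 80.5, 120 and 133 CPM to 16.5, 18.3 and 22.5 CPM (log2 fold change -2.54, SE 0.33, adjusted p = 5.6e-05), while Ldha, the other subunit, was at -0.20 (adjusted p = 0.84). Hk1, a hexokinase, and Gpi1, the phosphoglucose isomerase, were called at 1.11 and -0.78. Of 12 genes of p53 and its targets only Pmaip1 (Noxa), which promotes apoptosis, was called by edgeR, with 129, 88.7 and 97.7 CPM in wt cells and 57.7, 30.2 and 28.5 CPM in KO#1, and Trp53 was at -0.11. In the paired fit 1 gene of this list was higher and 2 lower.

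Of 20 imprinted genes, 1 was called higher and 2 lower, with 6.25% and 3.6% as the background of this list and those that follow. The paired fit called 8 higher and 8 lower (background 22% and 20.5%). Nnat, expressed from the paternal allele, had 24.3, 18.2 and 32.2 CPM in wt cells and 3.16, 2.66 and 3.98 CPM in KO#1 (-2.92, SE 0.48, adjusted p = 0.00054), and Cdkn1c, a maternally expressed inhibitor of the cell cycle, 38.5, 35.7 and 42.5 CPM and 6.10, 4.70 and 11.2 CPM (-2.40, SE 0.50, adjusted p = 0.0042). Plagl1 rose from 0.761 ± 0.122 to 2.91 ± 0.225 CPM. Of 12 germline genes that are silenced by methylation, the main edgeR model called X-linked Taf7l lower, at -2.13 (adjusted p = 0.0044), and the paired fit 3 higher and 4 lower. Among 13 genes of cell adhesion and epithelial to mesenchymal transition the main model called Cdh2, DESeq2 called 1 higher and 1 lower, and the paired fit 3 higher and 3 lower. Cdh1, the E-cadherin gene on chromosome 8, was at 0.24 (adjusted p = 0.79).

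Part of the difference at 24 h was there before the induction. At 0 h, 1108 genes were called between the lines, 6.67% of those tested, and 545 genes were called at both times in the same direction, which is 33.3% of the calls at 24 h and 49.2% of those at 0 h. For chromosome 8 genes these shares were 35.4% and 50.5%. Over all tested genes, 7 were called in opposite directions. Of the 1636 genes called at 24 h, 1406 (85.9%) had the same sign at 0 h, called or not. The libraries at 0 h were smaller, with 3466436 to 14613617 counts in these lines against at least 18640956 at 24 h. Baiap2l1 was at 6.43 and Nod1 at -5.82 already at 0 h. The difference between the lines itself changed between 0 h and 24 h for 65 genes (0.391% of those tested), of which 6 are on chromosome 8, and for 6 to 36 genes with any 1 library left out. Sox11, a factor of neural progenitors, had 79.3, 44.6 and 50.5 CPM in wt cells and 1.95, 2.09 and 1.75 CPM in KO#1 at 0 h, and 29.3, 27.8 and 36.0 CPM and 8.82, 7.35 and 10.3 CPM at 24 h. The gap thus shrank from -4.92 to -1.81 on the log2 scale (adjusted p of the change 0.0036, edgeR). For the naive and formative lists the change was not called for any gene, so a difference at 24 h alone, such as that of Nanog, is not shown to be particular to that time.

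KO#2, the further Hmga2 KO clone, was compared with the same wt libraries, so its values are given only side by side. At 24 h its chromosome 8 level was -0.13, -0.15 and -0.18, where KO#1 had 0.43, 0.45 and 0.58. The chromosome 3 window was at -1.08, -0.85 and -0.80 in KO#2, and the X chromosome at -0.11, 0.36 and 0.20. Baiap2l1 was at 6.85 in KO#2 and 7.11 in KO#1, Olig2 had no count in any library of either clone, and Pou3f1 at -2.26 and -2.25. Hmga2 was at -0.04 in KO#2 and -1.36 in KO#1. Protein-coding genes held 82.3% to 84.7% of the counts in the KO#2 libraries, above all 6 libraries of wt cells and KO#1.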

How the data were processed

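RNA was measured in 18 libraries, 3 for each of 6 groups, of which the 3 wt and 3 KO#1 libraries at 24 h are described here. Per the study's methods, the authors prepared stranded total RNA libraries, sequenced them in pairs, trimmed them, removed ribosomal reads and aligned them to GRCm38 with STAR. The authors deposited raw counts per gene for 45706 genes. The annotation release and the use of strand in counting are not given in the sources used here. Genes were matched to GENCODE M21 (45143 matched).

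With edgeR 4.0.16 in R 4.3.3, genes were filtered with filterByExpr by group (minimum count 10), TMM factors were computed, and quasi-likelihood tests were made in a model of all 18 libraries, with Benjamini-Hochberg adjustment over all 16619 genes and calls under 0.05. Standard errors were taken from the log2 fold change and the F statistic (F is the squared ratio of both). CPM used total counts times TMM factors. On simulated counts with 200 changed genes the median fitted changes had the set directions. These counts held no effect of the replicate number, so the simulation does not cover shared deviations of same-numbered libraries. Same-numbered wt and KO#1 libraries deviated together (r = 0.48, 0.22 and 0.59, other pairs -0.50 to 0.10), so the replicate numbers were taken to pair them, and a paired fit of the 6 libraries was added after the data were seen. No libraries of the 18 were identical.

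Genes were named by rule: Hmga2 and Hmga1; protein-coding genes called at 24 h, with at least 4 CPM in the higher group and no overlap, of which the 10 largest rises and 10 largest falls off chromosome 8 and the 6 and 4 on it; the 6 most abundant of chromosome 8, of which some are not reported here; members of fixed lists, with examples of smallest adjusted p; and the 5 clearest changes between times. Col4a1, Col4a2 and further list members were named beyond it. Members and lists were chosen with earlier results of these data known. Alternatives were RLE factors, library sizes alone, TMM without chromosome 8, DESeq2 1.42.0, other filters and thresholds, the replicate block, protein-coding genes, only the groups compared, and each library left out. Intervals and limits from 3 counts cover counting error only, at 95% (exact Poisson).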

Additional observations from a re-analysis of the deposited data

Results flagged for a closer look

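For 10 of the genes described, the difference between KO#1 and wt cells was not the same at 24 h as at 0 h by the interaction test of edgeR. In the following, each value is the log2 fold change at 24 h minus that at 0 h. It was 2.83 for Atp10d (3.45 at 24 h and 0.62 at 0 h, adjusted p = 0.0036) and 6.01 for Bcl2l15 (5.46 and -0.55, adjusted p = 0.023). Lzts1 on chromosome 8 had -4.16 (-3.89 and 0.27, adjusted p = 0.037). Smyd1, a muscle methyltransferase, had -4.42, with 1.64, 0.367 and 0.833 CPM in wt cells and 19.4, 12.5 and 32.6 CPM in KO#1 at 0 h, and overlapping lines at 24 h (adjusted p = 0.0036). The value was 3.11 for Sox11 (adjusted p = 0.0036) and 2.02 for Tmem181a (1.88 and -0.14, adjusted p = 0.0044).

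The inhibitors of receptor kinase signalling Spry2 and Spry1 had 2.59 and 2.23 (adjusted p = 0.0036 and 0.029). Spry2 had 159, 97.2 and 144 CPM in wt cells and 20.3, 12.7 and 9.80 CPM in KO#1 at 0 h, and 52.0, 49.8 and 60.5 CPM and 31.7, 32.1 and 40.7 CPM at 24 h. Eomes had 3.00 (2.26 and -0.73, adjusted p = 0.014) and Pfkp 2.03 (1.67 and -0.35, adjusted p = 0.024). Each of these 10 values comes from 3 libraries a group. With 1 library left out, the count of genes with such a change fell from 65 to between 6 (without wt replicate 2) and 36 (without KO#1 replicate 1).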

How the results depend on the processing

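The count of 1636 genes became 1088 with library sizes alone, 1084 with 10 counts in every library, 805 at an adjusted p under 0.01, 5693 in the paired fit, and 1028 to 1293 with 1 library left out, lowest without wt replicate 2 (1028) and wt replicate 1 (1029). The 136 higher chromosome 8 genes became 77, 111, 73, 450 and 77 to 131, and the 1492 genes off chromosome 8 became 1007, 968, 729, 5209 and 938 to 1180 (949 without wt replicate 1). DESeq2 called 2131 genes, 181 of them higher on chromosome 8. The median of chromosome 8 genes minus that of the others, 0.51, lay between 0.48 and 0.58 with 1 library left out and was 0.38 with no filter on low counts. Hmga2 kept its direction, at -1.35 (adjusted p = 0.0123) with no filter and -1.43 (0.0083) in the paired fit, where it passed the threshold. The 65 genes whose difference changed between the times became 4 with library sizes alone, 276 with DESeq2, 307 with no filter, 5 at an adjusted p under 0.01 and 6 to 36 with 1 library left out. With the replicate block in the model of 18 libraries, 1686 genes were called (1563 shared with the 1636), 145 of them higher on chromosome 8, with 1533 off it, a median difference of 0.51, Hmga2 at -1.47 (adjusted p = 0.153, not called) and 50 changes between the times. No result reversed. The cause of these changes was not tested. The X chromosome median relative to the other autosomes, -0.30, was 0 with no filter and -0.24 with 10 counts in every library. That of the chromosome 3 window lay between -0.62 and -0.41 in all settings.
With 3 libraries a group, the main model called 144 of the 818 chromosome 8 genes, and clone and genotype cannot be told apart.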
